A study of Macaca mulatta with 11 samples.

Results

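Marrow stromal cultures of infant rhesus monkeys were compared with those of adult monkeys. The members are the 7 arrays whose titles say infant (4 arrays) or adult (3 arrays), of 11 arrays in the series. The infant cultures came from donors aged 6, 6, 3 and 5 months (arrays 1 to 4) and the adult cultures from donors aged 7, 7 and 8 years (arrays 1 to 3). Both groups were started from marrow aspirated under ketamine and local lidocaine, and the labels name no treatment of the cultures and no genetic change. Adherent cells were grown in serum-containing medium and collected at the second passage before they were confluent. The other 4 arrays are titled fetal, namely 2 of gestation day 120 and 2 of newborns, and their marrow was flushed from bones. They enter the fit as a group of their own and are given only as levels beside the comparison.

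Marrow stromal cells, also called mesenchymal stem or stromal cells, grow from marrow as adherent fibroblast-like cells. They lay down collagen-rich matrix, can be driven toward bone, cartilage and fat, and secrete factors that act on blood-forming cells. In culture they also carry part of the contractile apparatus of smooth muscle, and serum and handling switch on short-lived immediate early genes. The comparison asks which transcripts differ between stromal cultures of young and mature animals.

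RNA of each culture was hybridised to 1 array of human probe sets, so a level also depends on how well human probes match the monkey transcript. A probe set is a group of short probes summarised as 1 value. The values are intensities normalised between arrays, and all levels and differences below are on the log2 scale, where a difference of 1 is a 2-fold change. The labels do not say whether cultures of a group came from separate animals, or the sex of the donors, so the p-values measure only the spread between these cultures. RNA was taken from whole cultures, and fewer cells of a type cannot be told apart from less RNA per cell.

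The arrays were close in brightness, with median intensities from 164.9 to 169.6, and correlated with each other at r from 0.928 to 0.967 over 22215 probe sets. On their brightest probe sets, the stromal surface protein genes ENG and THY1 lay above the median of all log2 values, 7.38, in both groups. ENG averaged 9.03 ± 0.31 (SD, n = 4) in infants and 8.91 ± 0.23 (SD, n = 3) in adults, and THY1 8.16 ± 0.42 and 8.20 ± 0.13. The other ENG probe set was below that median (7.35 and 7.31), and the other THY1 probe sets were little above it, at 7.45 to 7.58. Another such marker, NT5E, was below that median, at 7.05 ± 0.03 in infants and 7.05 ± 0.13 in adults, so this probe set gives no support to the label. The leukocyte gene PTPRC averaged above the median on its brightest probe set (7.66 ± 0.34 and 7.75 ± 0.13) and below it on its others (6.88 to 7.07). CD14 (7.10 ± 0.33 and 7.47 ± 0.36) lay around the median level. These levels do not set stromal apart from leukocyte genes on every probe set.

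The 3 adult arrays were not alike. XIST, the RNA made from the inactive X chromosome, reached 11.23 in adult array 3, whereas the remaining 6 arrays had it at 7.27 to 7.70. RPS4Y1, a ribosomal protein gene of the Y chromosome, was as low as 7.81 there and at 11.55 to 12.16 elsewhere. Adult array 3 lay more than 1 above both other adult arrays in 77 probe sets and more than 1 below both in 123, against at most 19 above and 1 below for the other adult arrays. Adult arrays 1 and 2 in turn carried high immunoglobulin signal, described below. The part of either difference in the results was not tested. Values without these arrays are given for some of the genes whose call or size turned on them. A gene given without such values may depend on these arrays too. With adult arrays 1 and 2 left out the adult side is 1 array, so the spread comes from the infant and fetal-titled arrays and the fit shows how that 1 culture differs.

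**Figure D1:**
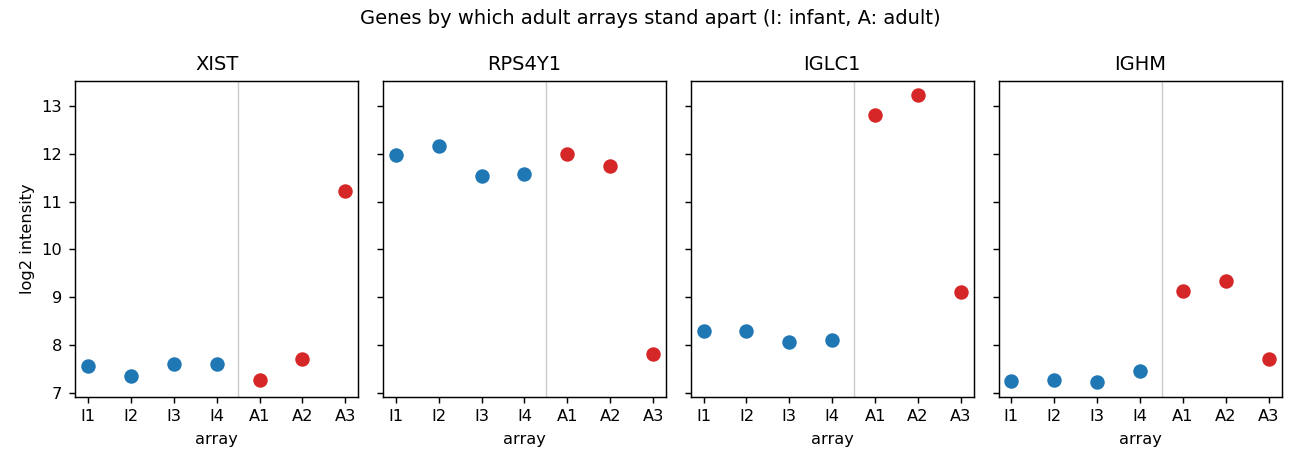
Log2 intensity of XIST, RPS4Y1, IGLC1 and IGHM (vertical axis) in each infant (I, blue) and adult (A, red) array (horizontal axis), 1 point per array. IGHM is shown on its probe set of smallest p, and its other 4 probe sets overlapped between groups. Adult array 3 has XIST at 11.23 and RPS4Y1 at 7.81, opposite to the other 6 arrays, and adult arrays 1 and 2 have IGLC1 at 12.82 and 13.23 against 9.10 in adult array 3 and at most 8.30 in infants.

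Between infants and adults, 4 of 22215 probe sets passed a limma adjusted p of 0.05, which is 0.018% of those tested. AKR1B10, a reductase of aldehydes and retinal, was higher in infants, and CHI3L1, ACTG2 and MFAP5 were lower. CHI3L1 encodes a secreted chitinase-like glycoprotein, ACTG2 a smooth muscle actin and MFAP5 a glycoprotein of microfibrils. The differences of these genes ranged from 2.41-fold to 2.98-fold. Without adjustment, 1374 probe sets had a p under 0.05, with 532 higher and 842 lower in infants. With no difference at all, a share of about 0.05 of the 22215 would have such a p, so much of this count can be chance.

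CHI3L1 was at 10.90, 11.44, 10.89 and 10.89 in infant arrays 1 to 4 and at 12.39, 12.66 and 12.73 in adult arrays 1 to 3. The groups did not overlap, and infant array 2 was the highest of its group. Infants were lower by 2.96-fold, a log2 difference of -1.57 (SE 0.19, limma adjusted p = 0.0106). The gene has 2 other probe sets, both lower in infants with no overlap, with differences of -1.76 (adjusted p = 0.164) and -0.41 (adjusted p = 0.690). The fetal-titled arrays lay lower again, between 9.16 and 10.01. The call was lost when infant array 3, adult array 1 or adult array 2 was left out, and the difference then stayed between -1.67 and -1.52 (limma adjusted p from 0.0651 to 0.0840).

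ACTG2 was at 8.17, 8.36, 8.00 and 8.24 in the infant arrays and at 9.92, 9.63 and 9.75 in the adult arrays. The lowest adult array stood 1.28 above the highest infant array, and each group was tight, with SDs of 0.15 (n = 4) and 0.14 (n = 3). Infants were lower by 2.98-fold, with a difference of -1.57 (SE 0.19, limma adjusted p = 0.0106). It is measured by 1 probe set. The fetal-titled arrays, between 8.03 and 8.99, overlapped the infant range and stayed below the adults. Without infant array 3 the limma adjusted p was 0.0651, without adult array 1 it was 0.136, and without adult arrays 1 and 2 together 0.0603.

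MFAP5 was at 7.52, 7.60, 7.24 and 6.90 in the infant arrays and at 8.88, 8.30 and 8.56 in the adult arrays. It lay around the median of all values in infants and above it in each adult array. The difference was -1.27 (SE 0.17, limma adjusted p = 0.0176), or 2.41-fold. A second probe set also had no overlap, with a difference of -0.53 (adjusted p = 0.430), while the remaining probe set differed by -0.01 and overlapped. The fetal-titled arrays were at 7.04 to 7.24, within the infant range. The call was lost without infant array 3 (limma adjusted p = 0.0764), without adult array 1 (0.194), without adult arrays 1 and 2 (0.0558) and in a fit of the 7 arrays alone (0.177).

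AKR1B10 was at 10.67, 10.83, 11.17 and 11.37 in the infant arrays and at 9.58, 9.99 and 9.13 in the adult arrays. All infant arrays were above all adult arrays, with adult array 3 lowest. The gene was higher in infants by 2.72-fold, a difference of 1.44 (SE 0.21, limma adjusted p = 0.0405). The fetal-titled arrays, at 10.97 to 11.57, were at the infant level. It was the weakest of the 4 calls and was kept in 3 of 7 fits that each left out 1 array. The adjusted p was 0.105 without infant array 2, 0.154 without infant array 3, 0.114 without infant array 4, 0.243 without adult array 1 and 0.177 in the fit of the 7 arrays alone. It was also lost after adding 100 to the intensities (0.121) and with the fetal-titled arrays as 2 stages (0.0756). AKR1B10 and CHI3L1 were called both without adult array 3 and with adult array 3 as the only adult array, the latter a comparison with 1 culture. Probes for AKR1B10 can also meet close paralogs of the aldo-keto reductase family, which these arrays do not separate.

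**Figure D2:**
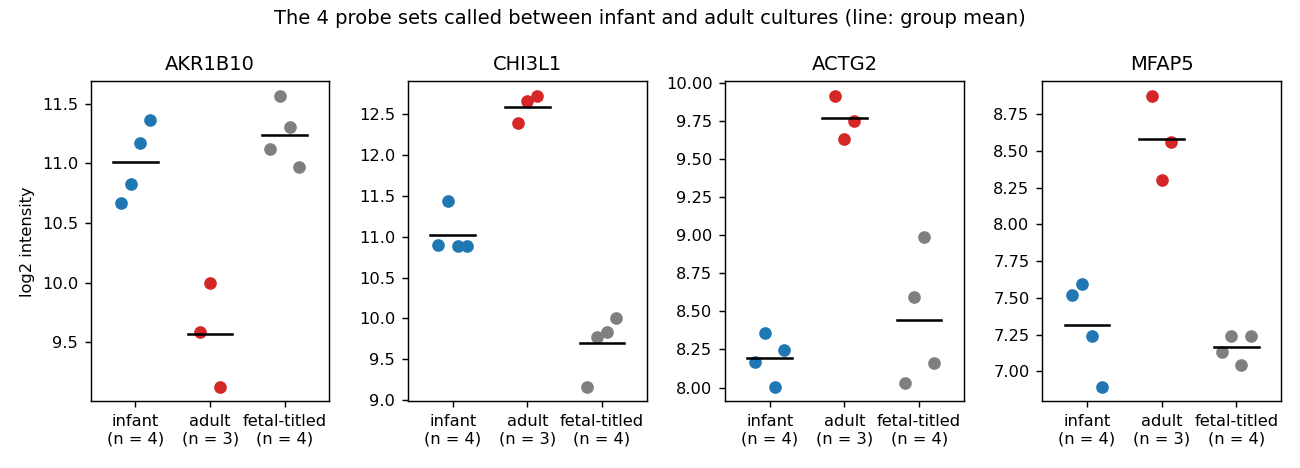
Log2 intensity (vertical axis, which does not start at 0) of the 4 called probe sets in each infant, adult and fetal-titled array, with a black line at each group mean. In each panel the 4 infant and 3 adult points do not overlap, and the fetal-titled mean lies nearer to the infant than to the adult mean, below it for CHI3L1.

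Deviations from the group means correlated at 0.145, 0.131 and 0.204 between infant and adult cultures that carry the same number in their titles. Unmatched arrays reached 0.258 (infant array 2 with adult array 1) and 0.299 (infant array 4 with adult array 3). No label says that a number marks a shared batch. The comparison was also fitted with the title number as a block. Number 4 has no adult array, so infant array 4 shares its block with fetal-titled array 4 alone. The block fit called 9 probe sets (2 higher and 7 lower in infants), with all 4 above among them. One of the other 5 has several gene symbols and is not named here. Of the rest, the block called CAV1, the scaffold protein of caveolae, as higher in infants, and LCN2, an iron-siderophore carrier, THBS2, a matricellular protein that limits vessel growth, and HLA-C, a class I antigen-presenting molecule, as lower. CAV1, LCN2 and HLA-C were chosen after their values were seen.

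LCN2 was at 9.16, 9.38, 9.22 and 10.42 in infants and at 10.77, 10.96 and 10.79 in adults. Infant array 4 stood well above the other infant arrays. Same-numbered pairs differed by -1.62, -1.58 and -1.57. With the block the difference was -1.67 (SE 0.16, limma adjusted p = 0.00130), and without it -1.30 (adjusted p = 0.589). Fetal-titled array 4, which shares the block of infant array 4, was at 10.82, against 8.57 to 9.38 in the other fetal-titled arrays.

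CAV1 was at 11.35, 11.40, 11.43 and 10.16 in infants and at 10.12, 10.06 and 9.70 in adults. Here too infant array 4 departed from its group, toward the adult level. The difference was 1.37 with the block (SE 0.13, limma adjusted p = 0.00137) and 1.13 without it (adjusted p = 0.397). Fetal-titled array 4 was at 10.6, against 11.2 to 11.5 in the other fetal-titled arrays. A second CAV1 probe set overlapped between groups, with a difference of 1.05 without the block (adjusted p = 0.767).

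THBS2 was at 9.30, 9.22, 9.75 and 9.89 in infants and at 10.83, 10.79 and 11.22 in adults. Its pair differences were -1.54, -1.57 and -1.47, and the fit gave -1.60 with the block (SE 0.19, limma adjusted p = 0.00680) and -1.41 without (adjusted p = 0.211). HLA-C was at 11.18, 11.21, 10.81 and 11.99 in infants and at 12.01, 12.31 and 12.37 in adults, with -1.15 with the block (limma adjusted p = 0.0230) and -0.93 without (adjusted p = 0.494). Of its 3 other probe sets, 1 had no overlap (-0.67 without the block, adjusted p = 0.710) and the others overlapped. Human class I probes cannot assign signal to a single member of the large monkey class I family. For THBS2 and HLA-C, fetal-titled array 4 was at 10.61 and 11.52, against at most 9.94 and 11.03 in the other fetal-titled arrays. The part of fetal-titled array 4 in the block calls was not tested.

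Across genes, each represented by its brightest probe set with 1 symbol, 606 of 11963 (5.07%) had no overlap between the infant and adult arrays. Infants were higher in 221, which is 1.85% of all genes, and lower in 385, which is 3.22%. Groups this small also separate completely by chance in some genes, and these shares were not tested against chance. A lack of overlap alone therefore does not mark a gene as different, here or below. The median difference over all genes was -0.017. Of the genes without overlap, 18 also differed by 2-fold or more, 9 in each direction. Beside the genes already described, the higher ones included IGFBP6, PLTP (a phospholipid transfer protein), ZFP36L2 (an RNA-binding decay factor) and RGS2 (a regulator of G protein signalling), and the lower ones JAM2, a junctional adhesion molecule. PLTP, ZFP36L2, RGS2 and JAM2 were chosen after their values were seen, and limma adjusted p was between 0.375 and 0.782 for them. Infant array 4 set much of the RGS2 difference, at 10.37 against 7.97 to 7.99 in the other infants and 7.34 to 7.57 in adults. JAM2 was at 7.72 to 8.48 in infants and at 9.52, 8.79 and 10.66 in adults, with adult array 3 highest.

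Among genes of smallest p that did not pass the adjusted threshold, IGFBP6, a binding protein with a preference for IGF2, had the widest difference on the infant side. It was at 10.66, 10.81, 9.81 and 10.37 in infants and at 8.54, 8.47 and 9.30 in adults, a difference of 1.64 (SE 0.27, limma adjusted p = 0.107). Adult array 3 was nearest to the infants, and without it the difference was 1.91 (adjusted p = 0.00582), against 1.11 (adjusted p = 0.307) without adult arrays 1 and 2. The fetal-titled arrays spanned 9.64 to 10.57.

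CD99, a cell surface glycoprotein, had closely spaced infant arrays, at 11.67, 11.59, 11.60 and 11.61, against 10.98 to 11.20 in adults. The difference was 0.56 (SE 0.09, limma adjusted p = 0.107), and its other probe set had no overlap either (0.38, adjusted p = 0.561). The fetal-titled arrays, at 11.06 to 11.22, overlapped the adult range and lay below every infant array. Adding 100 to the intensities before taking logs brought CD99 past the threshold (adjusted p = 0.0198).

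SMAD3, which carries the TGF-beta signal to the nucleus, was at 9.58, 9.69, 9.56 and 9.72 in infants and 8.78, 8.81 and 9.24 in adults. The difference was 0.69 (SE 0.12, limma adjusted p = 0.146), 0.84 without adult array 3 (adjusted p = 0.00292) and 0.39 without adult arrays 1 and 2 (adjusted p = 0.357). Its 3 other probe sets overlapped, with differences from -0.07 to 0.10. RBPJ, the DNA-binding partner of Notch, differed by 1.06 (SE 0.19, adjusted p = 0.146), with infants at 10.48 to 11.34 and adults at 9.61 to 9.84, while its other probe set overlapped (0.096). NID2, a basement membrane linker, differed by 1.08 (SE 0.20, adjusted p = 0.146), with infants at 9.91 to 10.30 and adults at 8.54 to 9.32. It was 0.85 without adult array 3 (adjusted p = 0.134) and 1.56 without adult arrays 1 and 2 (adjusted p = 0.0388).

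The other 6 genes on the infant side had differences from 0.41 to 0.92 and limma adjusted p from 0.171 to 0.326. SH3BP5, an adaptor that binds the JNK kinase, was higher by 0.92 and its 2 probe sets both had no overlap. LGALS3, the lectin galectin-3, was higher by 0.57. TM4SF1, a membrane protein of the tetraspanin-like group, was higher in all 4 of its probe sets and free of overlap in 2. TMED10 (a cargo receptor of the early secretory pathway), CTDSP2 (a small phosphatase) and ACTL7A (an actin-like protein best known from testis) made up the rest. The second probe sets of TMED10 and CTDSP2 overlapped, with differences of -0.01 and -0.0049.

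On the adult side, CNN1, the actin-binding protein calponin, was at 8.12, 8.44, 8.35 and 8.33 in infants and at 9.09, 8.87 and 8.78 in adults. The difference was -0.61 (SE 0.11, limma adjusted p = 0.146), -0.67 without adult array 3 (adjusted p = 0.0378) and -0.47 without adult arrays 1 and 2 (adjusted p = 0.263). PLOD2, which hydroxylates lysines of collagen telopeptides, differed by -0.77 (SE 0.15, adjusted p = 0.146), with infants at 9.48 to 10.11 and adults at 10.35 to 10.68, and its other probe set overlapped (-0.15). NTRK2, the receptor for the neurotrophin BDNF, differed by -0.56 (adjusted p = 0.161), by -0.69 without adult array 3 (adjusted p = 0.00590) and by -0.29 without adult arrays 1 and 2 (adjusted p = 0.460), though its infant levels, at 6.85 to 6.90, were below the median of all values. GNA11, a G protein alpha subunit, and CD24, a small surface glycoprotein, differed by -0.56 and -0.57. The other 5 GNA11 and 3 NTRK2 probe sets overlapped. For CD24, 4 of 6 probe sets were lower in infants and the others higher.

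**Figure D3:**
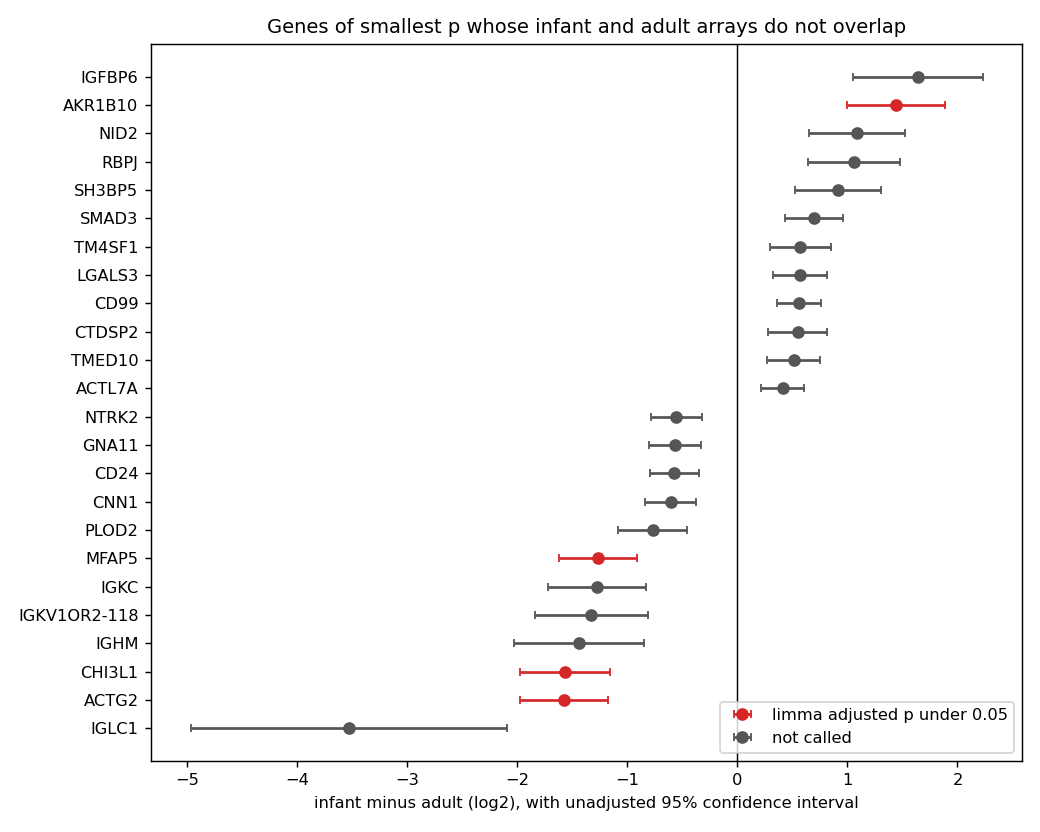
Infant minus adult difference in log2 (horizontal axis) with its unadjusted 95% confidence interval for the 4 called genes (red) and the other genes of smallest p without overlap (grey), 1 row per gene. Of the genes plotted, IGLC1 has the largest difference (-3.53) and the widest interval (-4.96 to -2.10), and ACTG2 and CHI3L1 have narrower ones (-1.97 to -1.17 and -1.97 to -1.16).

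In those 24 genes, the mean of the fetal-titled arrays lay between the infant and adult means in 16 and past the infant mean in 8. In 22 of the 24, every fetal-titled array was on the infant side of all adult arrays. The fetal-titled arrays differ in collection from both groups, and these positions were not tested. The 24 genes were picked for infants and adults lying apart, in a fit whose spread includes the fetal-titled arrays. No share over all genes is given, so the counts do not show which group the fetal-titled cultures resemble.

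Immunoglobulin genes were among the largest differences of the comparison, and none was called in the fit reported here. Of the calls in other fits of all arrays, 5 of 10 with array weights and 3 of 8 with a variance trend and robust moderation were immunoglobulin probe sets. IGLC1, a lambda light chain constant gene, was at 8.30, 8.29, 8.06 and 8.09 in infants and at 12.82, 13.23 and 9.10 in adults. Adult arrays 1 and 2 were far above every other array, and adult array 3 was 0.80 above the highest infant array. The difference was -3.53 (SE 0.67, limma adjusted p = 0.146), -4.84 without adult array 3 (adjusted p = 6.8e-10) and -0.91 without adult arrays 1 and 2 (adjusted p = 0.0739). IGHM, the constant gene of the mu heavy chain, was at 7.21 to 7.44 in infants and at 9.13, 9.34 and 7.71 in adults (-1.44, adjusted p = 0.146). The kappa chain probe set of smallest p, for IGKC, differed by -1.27 (adjusted p = 0.107). The other 4 IGHM and 5 IGLC1 probe sets overlapped, and the brightest IGHM probe set differed by 0.0025. Of 8 IGKC probe sets, 2 had no overlap.

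Counting probe sets that list immunoglobulin symbols alone, 75 of 89 were lower in infants, beside 11967 of 22215 overall. No overlap was seen in 13, all lower in infants, beside 4.98% of all probe sets, and 0 passed the limma adjusted threshold, while 36 had an unadjusted p under 0.05, 35 of them lower in infants. A heavy chain probe set that also lists microRNA symbols is outside this count and had the largest difference of all (-3.75, adjusted p = 0.146). Adult arrays 1 and 2 were above all other arrays of the series in 34, by more than 1 in 11. Adult array 3 was above all infants in 21. A single array also lies above a small group by chance in part of all probe sets. No share over all probe sets is given for this count, so it does not show raised signal in adult array 3. Without adult array 3, 22 were called, and without adult arrays 1 and 2, 0 were. Many of these probe sets share probes among variable and constant genes of 1 family and are not independent.

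Other genes of the antibody-producing lineage had smaller differences. The B cell receptor gene CD79A was at 7.97 in infants and 7.93 in adults, the plasma cell receptor gene TNFRSF17 at 6.65 and 6.69, the B cell surface gene MS4A1 at 7.37 and 7.27, and the lineage factor PAX5 at 7.65 and 7.53. These 4 differences were between -0.03 and 0.13, with limma adjusted p of at least 0.913. JCHAIN, which joins secreted antibody units, was lower in infants without overlap (-0.41, adjusted p = 0.603), with each level near or below the median of all values. Over the 20 B and plasma cell markers measured, 14 were lower in infants and 3 of these had no overlap. The median difference of the list was -0.06 and the mean -0.37, with IGLC1 at -3.53 the lowest. The mean deviation of the list per array was 0.32, 0.41 and -0.10 in the adult arrays and -0.23 to -0.12 in the infant arrays. The source of the immunoglobulin signal was not tested.

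The lists below were drawn up by function with earlier results of these data known, so their counts are described and not tested. Medians are read beside the -0.017 of all genes, and counts without overlap beside the 1.85% higher and 3.22% lower. Of 20 smooth muscle and contractile genes measured, 18 had a lower mean in infants, and the median difference was -0.23. ACTG2 passed the test and 4 genes had no overlap, all lower in infants (ACTG2, CNN1, MYL9 and TAGLN). MYL9, the regulatory light chain of myosin, was at 8.69, 8.86, 8.75 and 8.80 in infants and at 9.31, 9.36 and 9.41 in adults, a difference of -0.59 (SE 0.16, limma adjusted p = 0.465). TAGLN, a calponin-related actin-bundling protein, differed by only -0.28, at 13.90 to 14.04 against 14.20 to 14.28.

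The best known gene of the list, ACTA2, the alpha smooth muscle actin of myofibroblasts, overlapped between groups. It was at 12.50 to 12.59 in infants and at 13.02, 12.73 and 12.56 in adults (-0.23, limma adjusted p = 0.940). SMTN and CSRP1 differed by -0.31 and -0.34. MYH11, the smooth muscle myosin heavy chain, and MYLK, the kinase of the myosin regulatory light chain, varied within both groups, with adult array 3 highest in each. DES and VCL were the 2 genes higher in infants (0.12 and 0.10). The mean deviation of the list was -0.29 to 0.03 in infants and 0.09 to 0.25 in adults, and -0.61 to -0.06 in the fetal-titled arrays. Without adult array 3 the median was -0.20.

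Immediate early genes, the transcription factors and feedback regulators induced within minutes by serum or stress, were higher in infants in 24 of 25, with a median of 0.45. None passed the limma adjusted threshold, and 7 had an unadjusted p under 0.05, all higher in infants. No overlap was seen for 6, NR4A3, KLF6, FOS, JUN, DUSP1 and SRF, and FOSL2 was the 1 gene lower in infants (-0.05). NR4A3, an orphan nuclear receptor, was at 9.29, 9.43, 9.88 and 9.78 in infants and at 8.46, 8.47 and 8.37 in adults, a difference of 1.16 (SE 0.35, adjusted p = 0.551).

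FOS, a subunit of AP-1, was at 11.71, 11.43, 11.33 and 11.97 in infants and at 10.98, 11.12 and 9.84 in adults (0.96, SE 0.36, limma adjusted p = 0.712). Its partner JUN was at 9.93 to 10.17 in infants and at 9.90, 9.78 and 8.13 in adults (0.78, adjusted p = 0.767), with adult array 3 far below the other adult arrays. Without that array the JUN difference was 0.21 (adjusted p = 0.820), and with it as the only adult array 1.93 (adjusted p = 0.0107). FOS in turn differed by 0.56 and 1.77 in these fits (adjusted p = 0.732 and 0.187). EGR1, a zinc finger factor, overlapped, with 10.93 to 11.64 in infants and 11.11, 10.38 and 9.72 in adults (0.92, adjusted p = 0.667). KLF6, of the Kruppel-like family, was at 8.09 to 9.03 against 7.75 to 7.93 (0.61, adjusted p = 0.616).

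The immediate early genes also varied among the infant cultures. Infant arrays 3 and 4 were both above infant arrays 1 and 2 in 13 of the 25. NR4A2 is the widest case, at 7.48, 7.73, 9.86 and 10.10 in infants and 7.42 to 8.04 in adults, and KLF4, FOSB and ZFP36 had the same order. Adult array 3 was the lowest of the 7 arrays in 12 of the 25, against 14.2% of all probe sets. The mean deviation was -0.13, 0.11, 0.41 and 0.44 in infant arrays 1 to 4 and -0.19, -0.21 and -0.43 in the adult arrays. The fetal-titled arrays had 3 low values (-0.46 to -0.39) and 1 high value (0.64), so that a single newborn culture exceeded every infant. The median was 0.33 without adult array 3 and 0.28 with the replicate block. The time between medium change or harvest and lysis is not given in the labels, and its part was not tested.

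**Figure D4:**
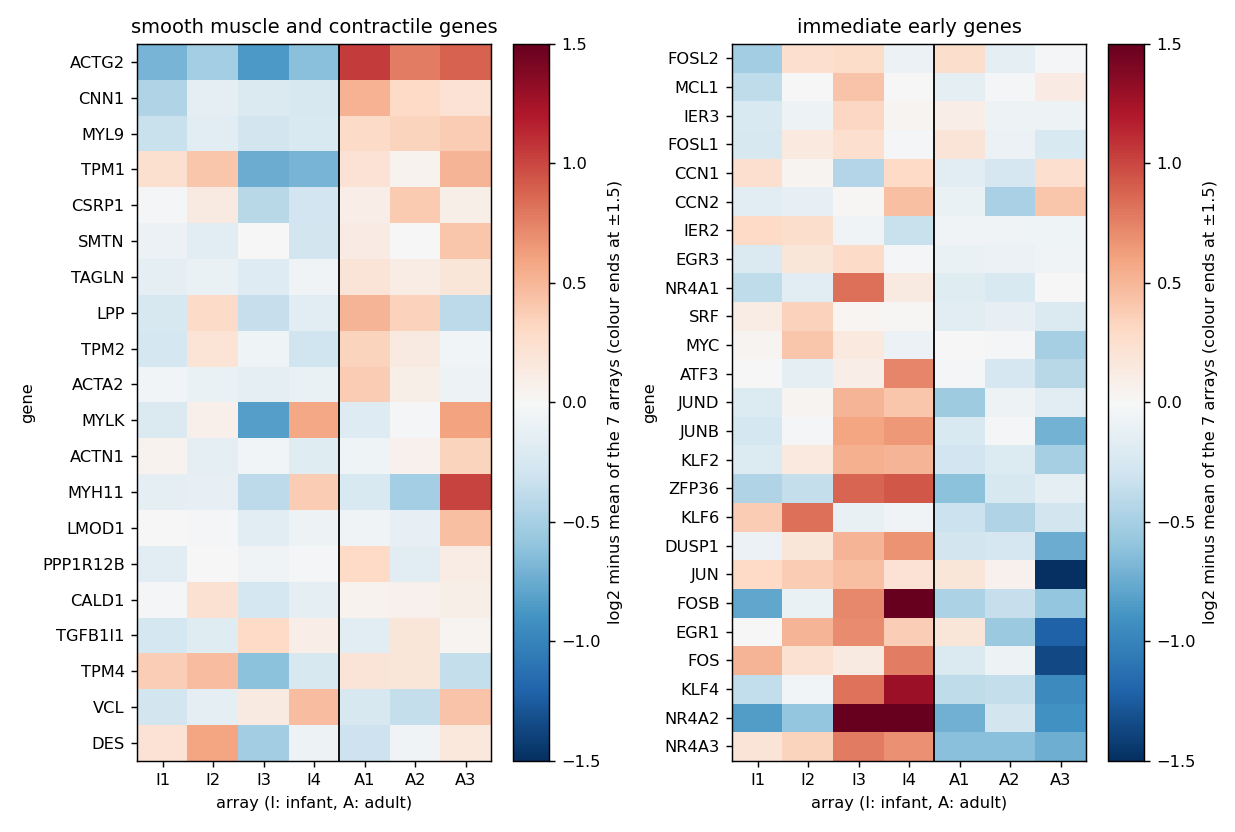
Log2 intensity minus the mean of the 7 arrays (colour, which ends at ±1.5) for the 20 contractile and 25 immediate early genes (rows, ordered by infant minus adult difference) in each infant (I) and adult (A) array (columns). The contractile genes ACTG2, CNN1, MYL9 and TAGLN are lower in all 4 infant arrays than in all 3 adult arrays, and several immediate early genes are highest in infant arrays 3 and 4 and lowest in adult array 3.

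Matrix genes differed in both directions. Of 18 collagen genes measured, 10 were lower and 8 higher in infants, and COL5A2, a regulator of fibril diameter, had no overlap (11.20 to 11.55 in infants, 11.74 to 12.35 in adults, -0.74, limma adjusted p = 0.481). Its second probe set had no overlap either (-0.88). COL1A2 differed by -0.43 (adjusted p = 0.675). The median of the collagens was -0.16 with all arrays and 0.08 without adult array 3, so its sign depends on that array. Of 20 microfibril and elastic fibre genes, 14 were lower, MFAP5 among them as the called gene. LOX, which cross-links collagen and elastin, was at 8.97 to 10.64 in infants and 10.58 to 11.58 in adults (-1.17, adjusted p = 0.494), whereas its relative LOXL1 was higher in infants without overlap (0.44, adjusted p = 0.494).

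Among 22 proteoglycan and related genes, 12 were lower in infants and 3 of those had no overlap, THBS2, SULF1 and PRELP. SULF1, which trims sulfate groups from heparan sulfate outside the cell, was at 8.28 to 9.08 in infants and 9.27 to 9.98 in adults (-0.80, SE 0.23, limma adjusted p = 0.494). Of 22 matrix proteases and inhibitors, 10 were higher and 12 lower, with 0 free of overlap.

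Of 23 chitinase-like and cartilage genes, 16 were lower in infants, with CHI3L1 as the called gene. CHIT1, the true chitinase of macrophages, was at 7.04 to 7.27 in infants and at 8.00, 8.16 and 7.23 in adults (-0.65, limma adjusted p = 0.465). It was called without adult array 3 (-0.93, limma adjusted p = 0.000761), while without adult arrays 1 and 2 the difference was -0.086. ACAN, the large proteoglycan of cartilage, was at 11.08, 11.16, 11.66 and 11.77 in infants and at 8.96, 8.52 and 12.51 in adults. Adult arrays 1 and 2 were below all infants and adult array 3 above all of them, and the gene's other 2 probe sets had the same order. The difference was 1.42 (SE 0.76, adjusted p = 0.819), and 2.68 without adult array 3 (adjusted p = 0.0399).

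The same order held in 2 further genes, chosen after their values were seen with adult array 3 left out. CD9, a tetraspanin, was at 10.49 to 11.07 in infants and at 9.21, 8.73 and 11.64 in adults, and LGR5, a receptor that boosts WNT signals, at 8.71 to 10.65 and at 6.84, 7.00 and 11.72. Without adult array 3, 55 probe sets were called, 13 higher and 42 lower in infants. With adult array 3 as the only adult array, 44 were called, 17 higher and 27 lower, which mark differences of that 1 culture from the infants, led by RPS4Y1 and XIST and with COMP, a cartilage matrix protein, at 10.19 in that array against 7.07 to 7.72 in infants and 7.25 to 7.47 in the other adults.

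**Figure D5:**
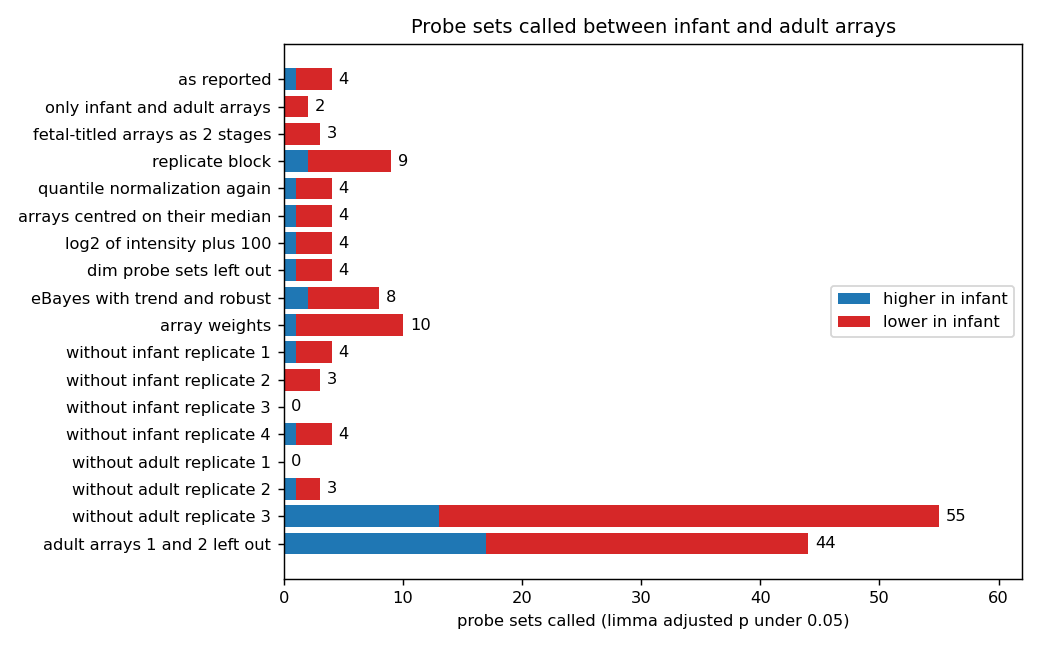
Number of probe sets called at a limma adjusted p under 0.05 (horizontal axis) in each fit (rows), split into higher (blue) and lower (red) in infants. The other fits call between 0 and 10, and the fits without adult array 3 and without adult arrays 1 and 2 call 55 and 44.

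In the TGF-beta and BMP list of 22 genes, 11 were higher and 11 lower. SMAD3 and ID3, an inhibitor of helix-loop-helix factors, were higher in infants without overlap, and the receptor TGFBR1 and the ligand TGFB3 lower. ID3 was at 7.22 to 8.10 against 6.93 to 7.13 (0.70, limma adjusted p = 0.465) and TGFBR1 at 6.85 to 7.18 against 7.24 to 7.74 (-0.47, adjusted p = 0.465). Of 24 WNT genes, 16 were higher and 8 lower. WNT5A, a ligand that mostly acts without beta-catenin, was at 8.27, 8.62, 9.23 and 9.15 in infants and 7.78, 7.97 and 7.76 in adults (0.98, SE 0.25, adjusted p = 0.452). CTNNB1, beta-catenin itself, was lower without overlap (-0.41, adjusted p = 0.767).

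Of 25 growth factor and IGF genes, 12 were higher and 13 lower. Against IGFBP6, the ligand IGF1 was lower in infants without overlap, at 7.64 to 7.92 against 8.57, 8.32 and 7.99 (-0.51, limma adjusted p = 0.465). Without adult array 3 the IGF1 difference was -0.66 (adjusted p = 0.0758), and without adult arrays 1 and 2 it was -0.21. Another IGF1 probe set overlapped (-1.06, adjusted p = 0.375) and was called without adult array 3 (-1.47, adjusted p = 0.000565). Of 14 prostaglandin genes, 6 were higher and 8 lower; the synthase PTGIS was at 9.40 to 9.85 in infants and at 8.27, 8.61 and 9.57 in adults (0.83, adjusted p = 0.519). PTGIS was called without adult array 3 (1.20, adjusted p = 0.00653), and without adult arrays 1 and 2 the difference was 0.076. Of 21 secreted inflammatory factors, 12 were lower, and the chemokines CCL2 (-0.63) and CCL5 (-0.42) had no overlap, both with adjusted p above the threshold (0.496 and 0.465). Of 24 interferon response genes, 13 were lower, and 0 had no overlap.

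The redox list that holds AKR1B10 did not follow it. Of 23 aldo-keto reductases and NRF2 target genes, 11 were higher and 12 lower, with a median of -0.02. NQO1, a quinone reductase, was higher without overlap, at 9.70 to 10.49 against 9.39 to 9.55 (0.57, limma adjusted p = 0.465). AKR1C1 and AKR1C2, steroid-metabolising relatives with nearly identical sequences, had lower means in infants (-0.45 and -0.37), with adult array 3 at 8.65 and 8.08, below adult arrays 1 and 2 (10.02 and 10.00 for AKR1C1, 8.58 and 8.49 for AKR1C2).

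Genes of cell division gave no direction. Of 28 mitosis genes 13 were higher and 15 lower, and of 29 DNA replication genes 16 were higher and 13 lower, with medians of -0.0036 and 0.035. The proliferation marker MKI67 was at 7.88 in infants and 7.94 in adults. Of 17 senescence and p53 genes 7 were higher and 10 lower. CDKN2A, the cell cycle inhibitor that accumulates in senescent cells, was at 8.17 in infants and 8.20 in adults (-0.03, limma adjusted p = 0.979), and CDKN1A at 10.10 and 10.14. The unadjusted 95% confidence interval of the CDKN2A difference was -0.27 to 0.20, so a difference of that size in either direction remains possible. The interval is not a limit of detection, since larger differences of other genes were not called.

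Glycolysis genes were higher in 15 of 21 (median 0.08), heat shock and unfolded protein genes in 14 of 19 (0.06) and hypoxia genes in 10 of 16 (0.08, but -0.12 without adult arrays 1 and 2). Sterol synthesis genes were lower in 15 of 19 (median -0.17), with EBP, a sterol isomerase, free of overlap (-0.58, limma adjusted p = 0.641). Cytosolic ribosomal protein genes were higher in 25 of 31 (median 0.09), but adult array 3 was the lowest array in 30 of them, and without it the median was -0.17. Infant arrays 3 and 4 were both below infant arrays 1 and 2 in 26 of these 31 genes.

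For the lineages that stromal cells can enter, osteoblast genes were split 8 and 8 and adipocyte genes 8 higher and 11 lower. CDH11, the mesenchymal cadherin, was higher in infants at 11.75 to 12.09 against 11.28 to 11.45 (0.51, limma adjusted p = 0.397), and CFD, the fat cell protease adipsin, at 7.56 to 7.86 against 7.15 to 7.34 (0.51, adjusted p = 0.329). The lineage regulators RUNX2 (7.58 and 7.46) and PPARG (8.34 and 8.09) overlapped. Of 19 surface markers of stromal cells, 9 were higher and 10 lower. CD44, the hyaluronan receptor, and PDGFRA, a PDGF receptor, were higher in infants without overlap (0.34 and 0.55, adjusted p = 0.711 and 0.642), but 3 of the 8 CD44 probe sets were lower.

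Among 13 blood stem cell niche factors, 8 were higher and 5 lower. ANGPT1, a ligand of the TIE2 receptor, was lower without overlap (-0.34, limma adjusted p = 0.637), while the chemokine CXCL12 was at 8.12 in infants and 8.09 in adults. Of 19 HOX genes, 9 were higher and 10 lower, and HOXC6 and HOXC10 were lower without overlap (-0.45 and -0.19).

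The lists of other cell types, beside the B and plasma cell list above, gave counts in both directions. Macrophage and leukocyte markers were lower in 15 of 22 (median -0.10, but 0.065 without adult arrays 1 and 2), with ELANE, a neutrophil protease, free of overlap (-0.58, limma adjusted p = 0.465). Erythroid markers were higher in 7 of 12, endothelial in 9 of 14, skeletal muscle in 9 of 20, neural and glial in 5 of 13, epithelial in 5 of 11 and sex-linked genes in 5 of 8. No gene of these 7 lists was called, and the widest means apart were those of XIST (-1.21) and RPS4Y1 (1.30), the genes in which adult array 3 stood apart. KRT7, an epithelial keratin, differed by -0.64 (adjusted p = 0.713). HBB, the beta globin of red cells, was at 7.89 in infants and 7.80 in adults.

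Over all 35 lists, which were chosen with earlier results of these data known, 672 genes were measured and 4 were called. Infants were higher without overlap in 23 and lower in 28 of them. The mean deviation per array kept infants and adults apart in 3 of the 35 lists, beside 5.07% of single genes without overlap. They were the contractile, immediate early and B and plasma cell lists. In the B and plasma cell list, adult array 3 (-0.10) was close to the highest infant array (-0.12). The mean difference of that list, -0.37, was far from its median, -0.06, with IGLC1 at -3.53. Its separation may rest on IGLC1 and was not tested without that gene. The infant minus adult median had the same sign in all fits for 12 of the 35, the contractile, immediate early and B and plasma cell lists among them.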

How the data were processed

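One array was run for each of 11 cultures. Per the submitters' processing notes, the authors deposited intensities from RMA (version not given in the sources used here), a method that subtracts background, quantile-normalises the arrays and combines the probes of a set, so overall brightness differences are already gone. The deposited intensities were converted to log2. Groups come from the titles. Limma 3.58.1 in R 4.3.3 (lmFit, eBayes) fitted 1 mean per title group over all 11 arrays, and infant minus adult was tested two-sided with Benjamini-Hochberg adjustment over 22215 probe sets at 0.05; every adjusted p is from limma. The code was tested on simulated data. Probe sets with 1 gene symbol (19065) name genes, 1043 have several and 2107 none here. Each of 11963 genes is represented by its brightest probe set in list counts.

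Named genes are the called ones, the 12 of smallest p per direction with no overlap between infant and adult arrays, the 3 members of smallest p of each list (5 for contractile and immediate early genes) and identity genes. Members of the comparison, the 35 lists (786 entries) and further list members named for their role were chosen with earlier results of these data known. The number in the titles is the only source of pairing. Deviations of same-numbered infant and adult arrays correlated at 0.145, 0.131 and 0.204, all above 0.1. Unmatched arrays reached more, with 0.258 for infant array 2 with adult array 1 and 0.299 for infant array 4 with adult array 3. Precision is limited by the number of arrays. Alternatives changed the samples, block, normalisation, offset, filter, variance model and array weights, and left out arrays.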

Additional observations from a re-analysis of the deposited data

Results flagged for a closer look

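Within the infant group, CHI3L1 in infant array 2 was the highest sample at 11.44, and its gap to the next infant array was 0.984 of the whole infant range, since the other 3 infant arrays were at 10.90, 10.89 and 10.89. Of 59 groups of 4 arrays looked at, this was the 1 with a gap above Dixon's critical value, and chance alone gives about 5% of groups such a gap. That array was still below all adult arrays, and without it the CHI3L1 difference was -1.70 (limma adjusted p = 0.00935).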

How the results depend on the processing

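The count of called probe sets was 4 as reported. It was 2 with the infant and adult arrays alone, 9 with the replicate block, 8 with a variance trend and robust moderation, 10 with array weights and 44 with adult arrays 1 and 2 left out, where the lone adult array is assumed to vary like the other groups. Leaving out 1 array at a time gave 0 to 55, with 0 without infant array 3 or without adult array 1 (where 1406 and 1555 had an unadjusted limma p under 0.05) and 55 without adult array 3; the cause of the fall to 0 was not tested. Treating the fetal-titled arrays as 2 stages gave 3, without AKR1B10, and another quantile normalisation, median centring and a filter on dim probe sets gave the same 4. An added offset of 100 also gave 4, with AKR1B10 lost (adjusted p = 0.121) and CD99 gained. The replicate block changed no other call of a named gene than those given above. The contractile median was -0.23 and moved to -0.34 without adult arrays 1 and 2, with a range from -0.34 to -0.15. The immediate early median ranged from 0.28 to 0.57. No called gene changed direction in any of these fits. Leaving out arrays could not reverse these genes, because their infant and adult arrays do not overlap, so the kept direction is no added support. Calls of the 4 genes were lost in 17 of 68 gene and setting combinations. Of 35 list medians, 23 changed sign in at least 1 fit. With 4 and 3 arrays, small differences are not detectable.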
